A study of Mus musculus with 36 samples.

Results

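Methylation of lysine 9 of histone H3 marks silent chromatin, and the genes described here encode the enzymes that write this mark, the proteins that read it and the cofactors that bring both to DNA. The list held 10 genes: the methyltransferases Setdb1, Suv39h1, Suv39h2, Ehmt1 and Ehmt2, the readers Cbx1, Cbx3 and Cbx5, and the cofactors Atf7ip and Morc3. A gene was read from the array row annotated with its symbol and no other, and from the row with the highest mean where there were several. By this rule 8 of the 10 genes had a row, of 22180 genes with such a row in all, and all 8 were among the 13082 genes tested. Suv39h1 and Suv39h2 were not analysed here.

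The samples were sorted CD4 T cells of TRIM28 knockout mice (KO) and of their wild-type littermates (WT). Each genotype was profiled as naive cells, with no stimulation, and after 72 h of stimulation with antibodies to CD3 and CD28 under 5 conditions, Th0, Th1, Th2, Th17 and Treg, with 3 samples in each of the 12 groups. The labels do not say in which cells or by which Cre the gene was deleted, give no age or sex of the mice, name no cytokines, and leave unstated if replicates are different animals; p-values therefore measure the spread between these samples, which may be technical. Each value is a log2 intensity, a brightness that compares samples for one gene and not one gene with another.

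TRIM28, also called KAP1, is carried to DNA by zinc-finger proteins with a KRAB domain and recruits SETDB1, which trimethylates the lysine and needs its partner ATF7IP to be stable in the nucleus. EHMT1 (GLP) and EHMT2 (G9a) act as a pair and mostly place the mono- and dimethyl forms in active parts of the genome. The heterochromatin protein 1 family, CBX1 (HP1 beta), CBX3 (HP1 gamma) and CBX5 (HP1 alpha), bind the methylated lysine through a chromodomain and also bind TRIM28. MORC3 is an ATPase of nuclear bodies that takes part in the silencing of endogenous retroviruses.

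The promoters are shown for the 4 genes that changed most often in the KO cells. Setdb1, Morc3 and the pair of Cbx5 and Cbx3 differed in when they changed. The promoters were taken from RefSeq on GRCm38.p6, from 250 bases before to 50 bases after the start. They run 5′ to 3′ along the gene's strand. All 10 listed genes matched the promoter table, with 14 promoters among them. Capitals mark matches on either strand to 3 motifs: the E2F words TTTCCCGC, TTTCGCGC, TTTGCCGC and TTTGGCGC, the cell-cycle element TTTGAA (CHR), and CCAAT. The motifs do not overlap one another in these sequences.
Setdb1, chr3:95357153-95357452, minus strand: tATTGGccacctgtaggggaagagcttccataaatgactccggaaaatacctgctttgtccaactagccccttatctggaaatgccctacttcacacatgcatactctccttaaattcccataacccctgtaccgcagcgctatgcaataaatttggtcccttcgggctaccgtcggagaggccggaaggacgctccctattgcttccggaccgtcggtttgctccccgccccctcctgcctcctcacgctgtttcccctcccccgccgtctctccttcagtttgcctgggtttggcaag
Morc3, chr16:93831871-93832170, plus strand: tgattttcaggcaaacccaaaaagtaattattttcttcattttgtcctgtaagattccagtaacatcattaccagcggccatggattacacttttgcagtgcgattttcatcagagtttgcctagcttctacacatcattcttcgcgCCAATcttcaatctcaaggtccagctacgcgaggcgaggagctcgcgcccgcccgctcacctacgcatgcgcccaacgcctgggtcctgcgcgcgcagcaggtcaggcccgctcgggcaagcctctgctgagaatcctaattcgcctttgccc
Cbx5, chr15:103239803-103240102, minus strand: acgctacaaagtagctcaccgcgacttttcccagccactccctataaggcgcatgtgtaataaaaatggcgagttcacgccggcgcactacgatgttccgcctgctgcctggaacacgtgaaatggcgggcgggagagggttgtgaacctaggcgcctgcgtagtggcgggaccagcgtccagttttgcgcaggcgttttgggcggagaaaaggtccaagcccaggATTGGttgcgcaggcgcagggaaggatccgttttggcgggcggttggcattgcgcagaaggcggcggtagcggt
Cbx3, chr6:51470366-51470665, plus strand: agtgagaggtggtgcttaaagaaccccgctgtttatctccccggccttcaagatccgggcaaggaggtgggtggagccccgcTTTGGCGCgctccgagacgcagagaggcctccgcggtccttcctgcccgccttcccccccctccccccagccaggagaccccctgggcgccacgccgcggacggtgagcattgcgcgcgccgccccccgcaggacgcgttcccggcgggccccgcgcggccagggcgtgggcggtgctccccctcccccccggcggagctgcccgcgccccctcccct
Setdb1, Morc3 and Cbx5 each held 1 CCAAT match, a word found in 37.4% of 32851 promoters. Cbx3 held 1 E2F match, TTTGGCGC, found with the other E2F words in 2.3% of promoters. Cbx5 and Cbx3 each have a further promoter in the table, not shown, with no match. None of the 4 sequences held the cell-cycle element, which was present in 17.9% of promoters. A match is a run of letters and not a bound site.

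The targeted gene was low in all KO samples. Trim28 lay between 5.51 and 7.86 in the 18 KO samples and between 9.21 and 9.99 in the 18 WT samples, a mean change of -3.26 on the log2 scale. The change was -1.98 in naive cells, with a KO mean of 7.57, and -3.83 in Th0 cells, with a KO mean of 5.93, and these differed (adjusted p = 7.56e-06). The labelled cell type was borne out by its markers, with Cd4 between 10.52 and 11.62 in KO and between 10.45 and 11.58 in WT samples, and Cd3e at 11.56 or more in every sample. Of other cells, Ms4a1 of B cells stayed at 3.68 or less, Cd79b reached 6.26 in KO and 6.24 in WT samples, and Lyz2 of myeloid cells at 4.55 or less. Cd8a of CD8 T cells stayed at 6.50 or less, while Cd8b1 reached 8.84 in KO and 8.71 in WT samples and Itgam of myeloid cells 7.87 in KO and 5.70 in WT samples. By condition, Cd8a rose by 1.02 in KO Treg cells and Cd8b1 fell by 0.59 in KO Th0 cells. Cd79b fell by 0.50 in Th0 and rose by 0.51 in Th17, and Pax5 fell by 0.32 in Th1. Eomes, the 1 NK cell marker tested, fell by 2.55 in Th1 and by 1.13 in Th2. Of 2 myeloid markers tested, 1 was called higher in Th17 and 1 in Treg, with median changes of 0.45 and 0.90. The part of these markers in the results was not tested. Sample medians ranged over 5.18 to 5.35. Xist was above 10 in 2 of 3 KO naive samples and in 1 of 3 WT naive samples and low in all stimulated samples, so naive groups mixed the sexes and comparisons with naive cells carry this difference. With a term for it, the count of KO calls in naive cells was still 1. Sample 1 of KO Th0 and sample 1 of KO Th1 stood apart from their replicates, with the mean of 19 proliferation genes at 7.52 and 7.88, against up to 9.34 in KO Th0 and 9.77 in KO Th1. In bulk samples fewer cells of a type and less RNA per cell cannot be told apart.

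Setdb1 was higher in KO than in WT cells in all 5 stimulated conditions and was not called in naive cells. KO Th2 samples had 11.56, 11.86 and 11.74, against 9.42, 9.32 and 9.09 in WT Th2 samples. KO Th17 samples had 11.12, 11.25 and 11.28, against 9.42, 9.24 and 9.36 in WT Th17 samples. Every KO sample of these conditions lay above every WT sample, with the largest gaps of the series for this gene.
The other stimulated conditions showed a smaller gap. KO Th0 samples had 10.29, 10.52 and 10.71, against 9.55, 9.37 and 9.46 in WT Th0 samples. KO Th1 samples had 9.55, 10.20 and 10.58, against 9.20, 9.18 and 9.09 in WT Th1 samples. KO Treg samples had 10.61, 10.56 and 10.39, against 9.49, 9.33 and 9.44 in WT Treg samples. The groups did not overlap in any of these conditions, and the lowest KO value was that of the Th1 sample numbered 1.
In naive cells the genotypes overlapped, with 9.35, 9.41 and 9.07 in KO and 9.26, 9.22 and 9.24 in WT samples.

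The change of Setdb1 was 2.44 (SE 0.15) in Th2, a 5.43-fold rise (limma, adjusted p = 9.9e-13), and 1.88 in Th17, 3.67-fold (adjusted p = 6.62e-10). It was 1.10 in Treg, 1.04 in Th0 and 0.95 in Th1, with adjusted p of 1.49e-05, 7.07e-06 and 1.89e-05. In naive cells it was 0.04, with a 95% confidence interval of -0.28 to 0.35 and an adjusted p of 0.985. The KO effect was larger by 1.40 in Th2 than in Th0 (adjusted p = 0.000103) and by 0.83 in Th17 than in Th0 (adjusted p = 0.00968). It was larger by 1.01 in Th0 than in naive cells (adjusted p = 0.00203). With both of the KO samples that stood apart left out, the effect in Th0 was 1.15 and that in Th1 1.23, both still called.
In WT cells Setdb1 hardly moved, its 6 group means spanning 0.31 log2 units, against 2.44 in KO cells. The order in KO cells was Th2, Th17, Treg, Th0, Th1 and naive. The Th2 and Th17 samples did not overlap with each other or with the rest, whereas Treg, Th0 and Th1 samples overlapped. None of the comparisons within WT cells passed for Setdb1.

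**Figure D1:**
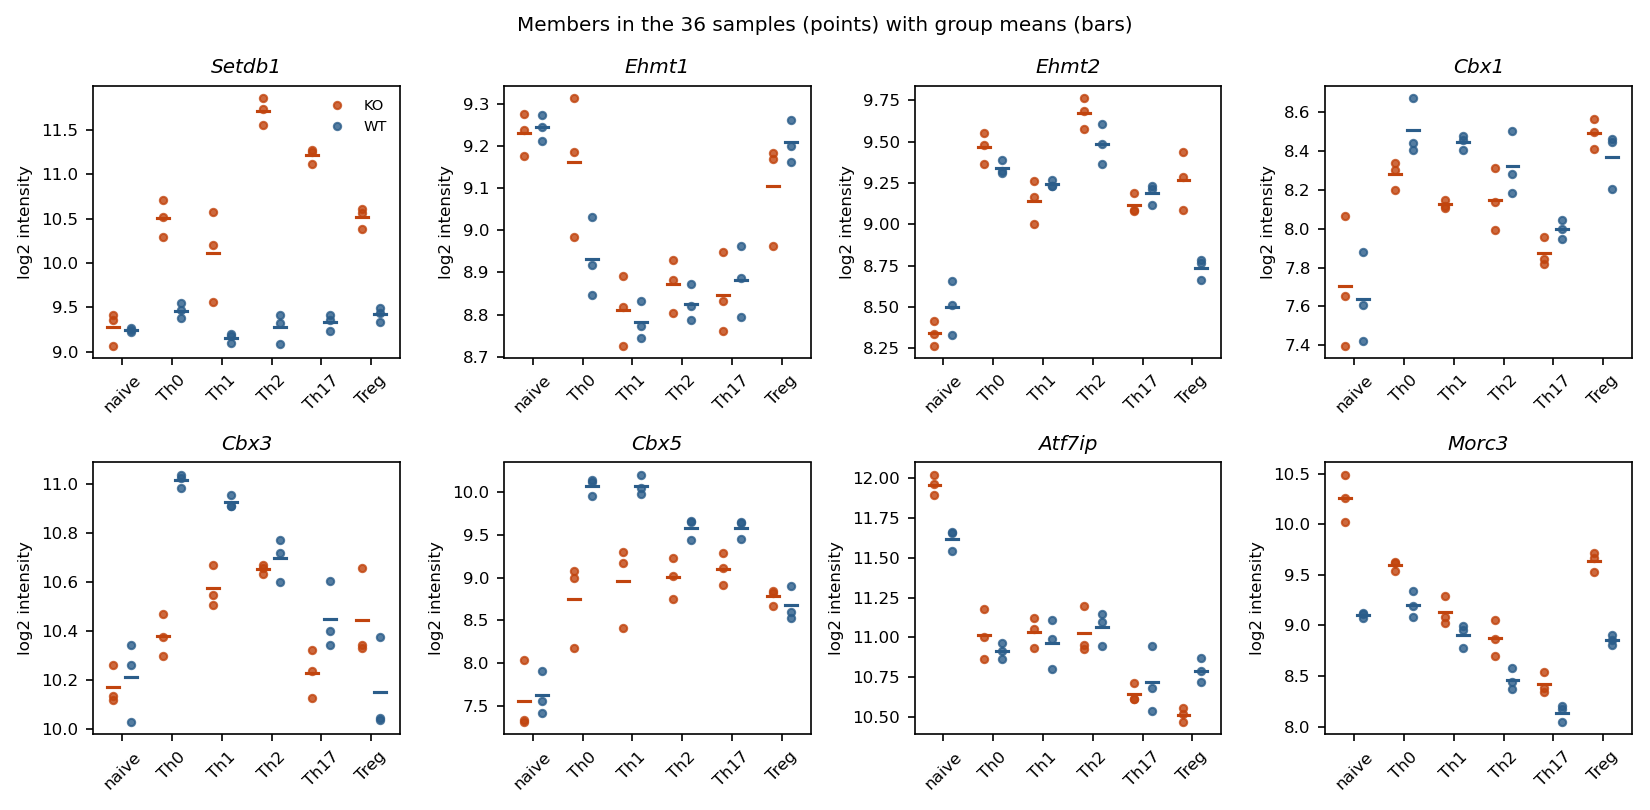
Log2 intensity (y axis) of each of the 8 genes in the 36 samples, by condition (x axis), with KO samples left of WT samples; points are samples and bars are means of 3. Setdb1 in KO cells spans 2.44 log2 units between its highest and lowest group means, and in WT cells 0.31.

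Morc3 was higher in KO than in WT cells, most of all in naive cells, where Setdb1 was not called. Naive KO samples had 10.26, 10.49 and 10.02, against 9.12, 9.12 and 9.07 in naive WT samples, a gap with no overlap. Treg KO samples had 9.71, 9.66 and 9.53, against 8.90, 8.80 and 8.86 in Treg WT samples. In Th0 the KO samples had 9.54, 9.62 and 9.63, against 9.34, 9.08 and 9.19 in WT. The genotypes were separate in each of these conditions too.
The change of Morc3 was 1.15 (SE 0.10) in naive cells, 2.23-fold (adjusted p = 6.55e-09), 0.78 in Treg (adjusted p = 7.49e-06), 0.41 in Th2 (adjusted p = 0.00632) and 0.39 in Th0 (adjusted p = 0.00369). In Th1 it was 0.23 (adjusted p = 0.0832) and in Th17 0.28 (adjusted p = 0.0941), which did not pass. The call in Th2 was lost without the KO Th2 sample numbered 1 and when the model held only the KO and WT Th2 samples. The KO effect was smaller by 0.76 in Th0 than in naive cells, and this difference passed (adjusted p = 0.000887). The effect was larger by 0.39 in Treg than in Th0, with an adjusted p of 0.0498 that missed the threshold in 27 of 50 alternatives.
Over conditions Morc3 was lowest in Th17 cells of both genotypes, at 8.38, 8.35 and 8.54 in KO and 8.17, 8.04 and 8.20 in WT. Relative to Th0 this was a change of -1.17 in KO cells (adjusted p = 1.78e-10) and -1.06 in WT cells (adjusted p = 1.78e-09). With Th0 stimulation Morc3 fell by 0.66 in KO cells (adjusted p = 8.5e-06), while in WT cells the change was 0.10 and did not pass.

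Cbx5 and Cbx3, readers of the mark, were lower in KO cells in Th0 and Th1 and were not called in the other conditions. Cbx5 had 8.18, 9.07 and 8.999 in KO Th0 samples, against 9.96, 10.12 and 10.14 in WT Th0 samples. In Th1 it had 8.41, 9.30 and 9.17 in KO, against 9.98, 10.20 and 10.05 in WT samples. Every KO sample lay below every WT sample in both conditions, and the samples numbered 1 were the lowest of their groups.
In Treg the genotypes overlapped, with 8.82, 8.67 and 8.85 in KO and 8.90, 8.52 and 8.59 in WT samples. Cbx5 changed by -1.32 (SE 0.21) in Th0, 2.50-fold lower (adjusted p = 2.27e-05), and by -1.12 in Th1 (adjusted p = 0.000138). Without both samples numbered 1 these were -1.04 and -0.84, and both were still called. The changes in Th2, -0.58 (adjusted p = 0.0625), and Th17, -0.48 (adjusted p = 0.191), did not pass, but passed when both samples were left out. The KO effect was higher by 1.43 in Treg than in Th0 (adjusted p = 0.00103).
Cbx3 had 10.37, 10.47 and 10.30 in KO Th0 samples, against 10.98, 11.04 and 11.02 in WT Th0 samples. Its change was -0.63 (SE 0.10) in Th0 (adjusted p = 1.37e-05) and -0.35 in Th1 (adjusted p = 0.00501). The KO effect was higher by 0.93 in Treg than in Th0 (adjusted p = 4.03e-05) and by 0.59 in Th2 than in Th0 (adjusted p = 0.00669). Cbx3 had 4 rows, whose correlation over the 36 samples was between 0.55 and 0.96. The falls in Th0 and Th1 passed in 3 rows, while the row with the lowest mean gave -0.22 in Th0 (adjusted p = 0.258), so the size for Cbx3 is uncertain. That row gave 0.26 for Treg minus Th0 (limma fit to all rows, adjusted p = 0.388). In the same fit, Th2 minus Th0 had an adjusted p of 0.0142, 0.0986, 0.0427 and 0.654 in the 4 rows, so it did not pass in all of them.
Cbx1, the remaining reader, fell by 0.32 on the log2 scale in Th1 and was called in none of the other 5 conditions. Its values there were 8.15, 8.11 and 8.12 in KO, against 8.48, 8.40 and 8.46 in WT samples. The adjusted p of 0.0402 was lost when any one Th1 sample was left out.

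**Figure D2:**
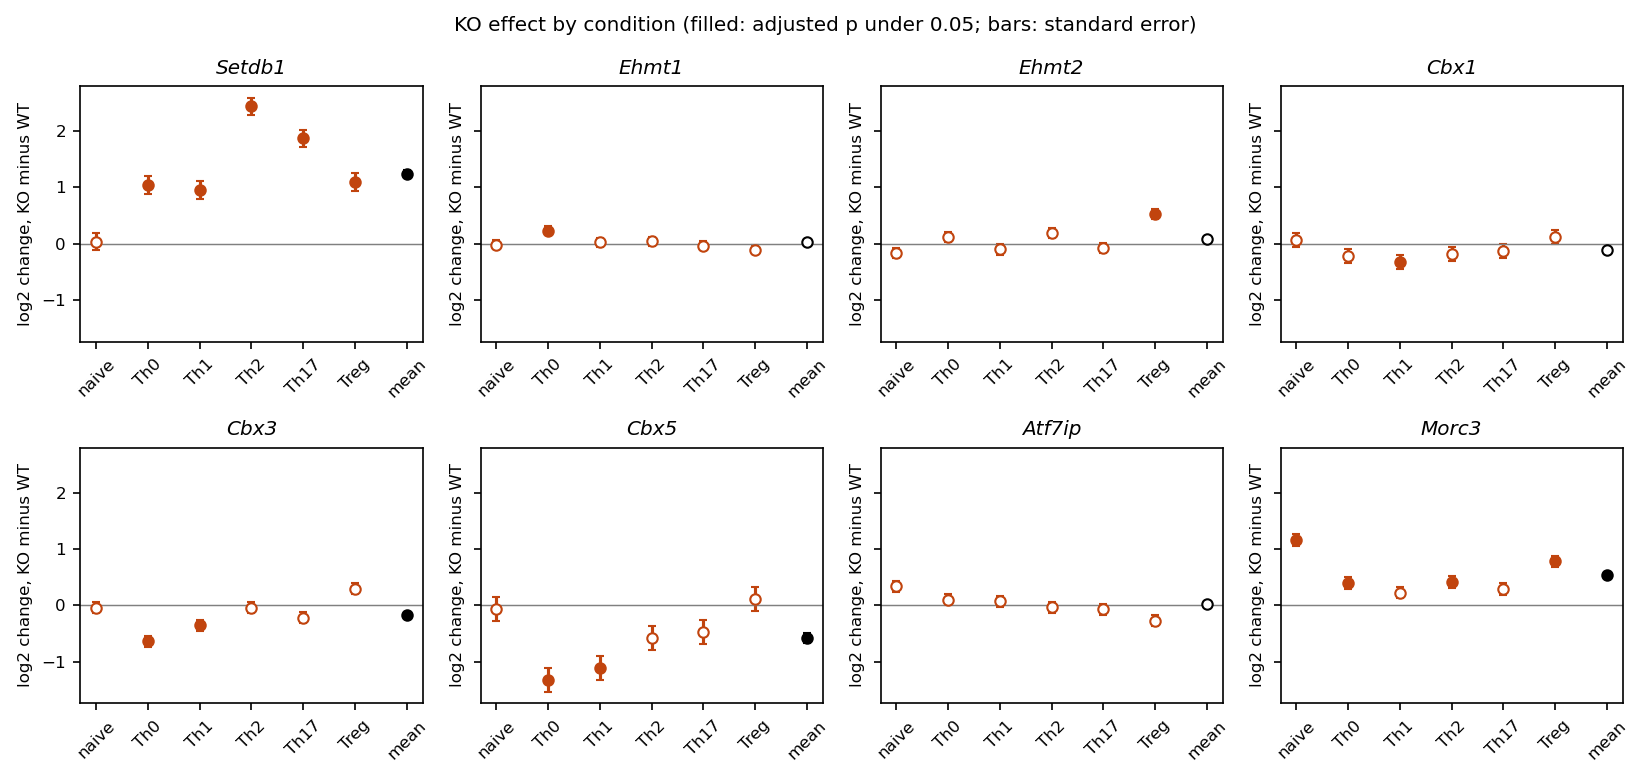
Log2 change, KO minus WT, of the 8 genes (y axis) in each condition and averaged over the 6 (x axis), with standard errors as bars and filled points where the adjusted p was under 0.05. Setdb1 runs between 0.04 in naive and 2.44 in Th2 cells, Morc3 is largest in naive cells at 1.15, and Cbx5 is lowest in Th0 at -1.32.

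Proliferation genes were read beside these changes. Of 19 tested genes of the cell cycle, 19 were lower in KO cells in Th0 and 19 in Th1, and 0 passed in each of the other 4 conditions; their median change was -1.86 in Th0, -0.62 in Th2, -0.63 in Th17 and -0.07 in Treg, against -0.001, -0.02, -0.02 and -0.03 over all genes tested. Their mean per sample lay between 7.52 and 9.34 in KO Th0 and between 10.44 and 10.50 in WT Th0 samples. In Th2 it lay between 9.21 and 9.39 in KO and between 9.77 and 10.15 in WT samples, and in Th17 between 9.21 and 9.39 in KO and between 9.69 and 9.997 in WT samples, so that these groups too did not overlap. In Treg they did, between 8.15 and 8.74 in KO and between 8.11 and 8.82 in WT samples. Over the 12 group means Cbx5 correlated with this mean at a Pearson r of 0.99, and at 0.98 over the 10 stimulated groups. For Cbx3 r was 0.79 over all groups and 0.80 over the stimulated groups, and for Setdb1 it was 0.07 and -0.46. For Cbx1 it was 0.66 and 0.07, for Ehmt2 0.77 and 0.29, and for Ehmt1 -0.84 and -0.73. For Atf7ip it was -0.66 and 0.35, and for Morc3 -0.61 and -0.44. The groups share genotypes and conditions, and the part of cell division in the levels of Cbx5 and Cbx3 was not tested. The 3 genes most like Cbx5 over the 12 group means, of 13081 compared, were Neil3, Shcbp1 and Birc5, each at 0.99. Birc5, an inhibitor of apoptosis needed at cell division, was one of the proliferation genes.

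**Figure D3:**
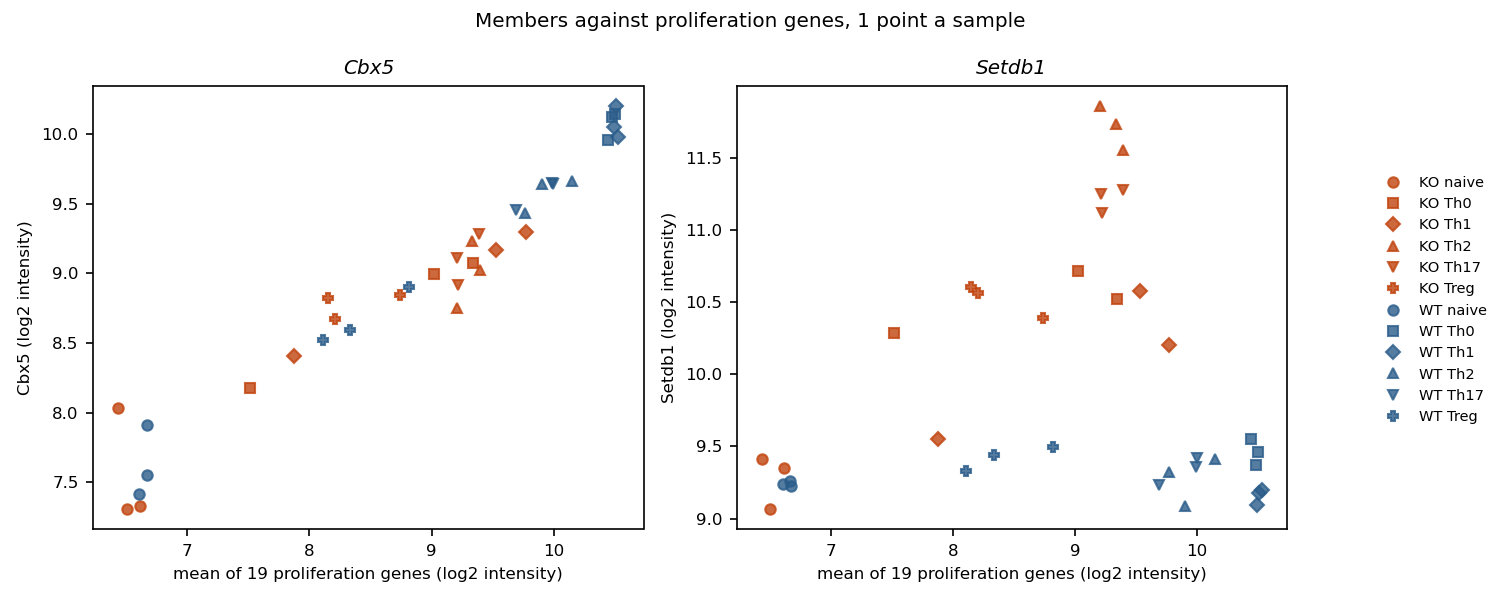
Log2 intensity of Cbx5 (left) and Setdb1 (right) against the mean of 19 proliferation genes in each of the 36 samples; colour gives the genotype and the marker the condition. Cbx5 lies along one band in both genotypes (r of 0.99 over the 12 group means), while Setdb1 in stimulated KO cells lies above the WT samples at like proliferation means (r of 0.07).

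The remaining enzymes and the SETDB1 partner had few calls between genotypes. Ehmt2 was higher in KO Treg samples, at 9.44, 9.28 and 9.08, against 8.77, 8.67 and 8.78 in WT Treg samples, with no overlap. Its change was 0.53 (SE 0.09, adjusted p = 0.000287), and it did not pass in the other 5 conditions. Ehmt1, its partner, was higher in KO Th0 samples, at 9.31, 8.98 and 9.19, against 9.03, 8.92 and 8.85 in WT. The change of 0.23 (limma, adjusted p = 0.0238) lay within overlapping groups. Its call was lost without the KO Th0 sample numbered 1 or 3 or the WT Th0 sample numbered 2 or 3. It was also lost with median centering and in a fit to only the groups compared. Atf7ip passed in none of the 6 conditions: naive KO samples had 12.02, 11.96 and 11.89, against 11.66, 11.54 and 11.66 in naive WT samples, a change of 0.34 with an adjusted p of 0.104. In Treg its change was -0.28 (limma, adjusted p = 0.114), which was called only with array weights (adjusted p = 0.00876). The genotypes did not overlap for Atf7ip in naive or in Treg cells. The Pearson r of Setdb1 and Atf7ip over the 12 group means was -0.37.

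Counted over the 8 genes, the KO calls were read against all genes tested. In naive cells 1 gene rose (Morc3) and 0 fell, where 0.948% of all genes rose and 0.199% fell. In Th0 3 rose and 2 fell, against 16.8% and 19.6% of all genes. In Th1 1 rose and 3 fell, against 17% and 23.7%. With only 8 genes, the single rise in Th1 was near the share of all genes.
In Th2 2 rose and 0 fell, against 7.51% and 8.88% of all genes. In Th17 1 rose and 0 fell, against 4.03% and 4.18%. In Treg 3 rose and 0 fell, against 1.71% and 2.51%. Averaged over the 6 conditions 2 rose and 2 fell, against 18.9% and 27.5%. In this average both shares of the 8 genes were near those of all genes. The median change of the 8 genes in it was 0.02, against -0.01 over all genes tested.

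Stimulation moved most of the 8 genes in both genotypes, and a large part of all genes tested. In KO cells Th0 stimulation raised 4 of the 8 (26.2% of all genes rose) and lowered 2 (14.7% fell). In WT cells 4 rose (31.2% of all genes) and 2 fell (22.3%). Cbx5 rose 2.28-fold in KO cells (adjusted p = 5.16e-05), whose naive samples had 7.33, 8.03 and 7.31. In WT cells it rose 5.44-fold (adjusted p = 1.81e-10), with 9.96, 10.12 and 10.14 in Th0 and 7.91, 7.55 and 7.42 in naive samples. Th0 samples lay above naive samples in both genotypes, and the KO effect was lower by 1.25 in Th0 than in naive cells (adjusted p = 0.00495).
Ehmt2 rose in both genotypes, by 1.13 in KO cells (adjusted p = 1.19e-10) and 0.84 in WT cells (adjusted p = 9.51e-09). Cbx1 rose by 0.58 in KO and 0.87 in WT cells. Atf7ip fell by 0.94 in KO cells (adjusted p = 1.06e-08) and by 0.71 in WT cells (adjusted p = 5.79e-07). Setdb1 rose by 1.23 in KO cells (adjusted p = 2.7e-07), while its change of 0.22 in WT cells did not pass. Cbx3 changed by 0.21 in KO cells, which did not pass, and rose by 0.80 in WT cells (adjusted p = 7.24e-08). The KO effect on Cbx3 was lower by 0.59 in Th0 than in naive cells (adjusted p = 0.00392).

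**Figure D4:**
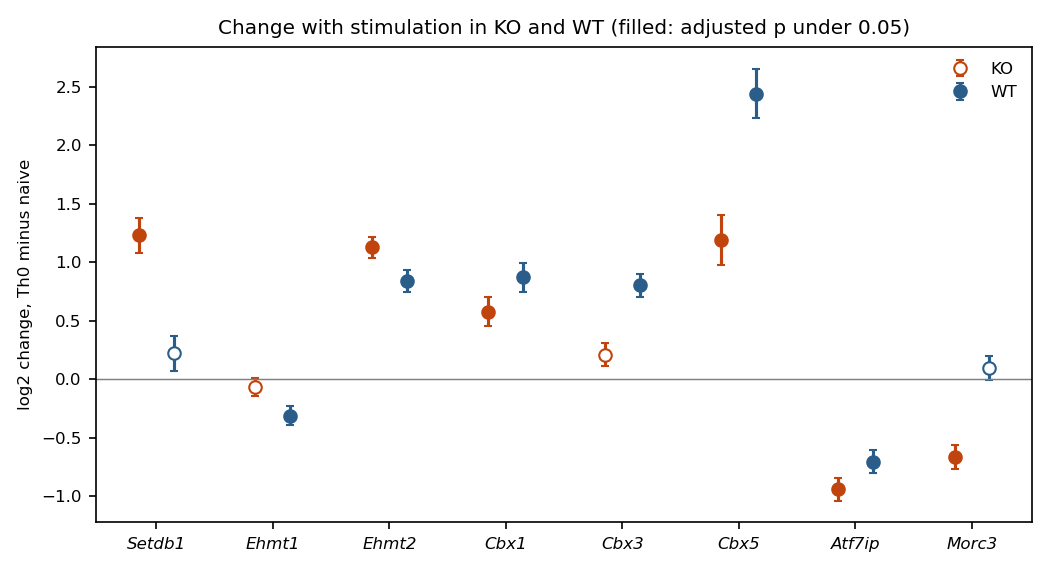
Log2 change of each gene, Th0 minus naive (y axis), in KO and WT cells, with standard errors as bars and filled points where the adjusted p was under 0.05. Cbx5 rises by 1.19 in KO and 2.44 in WT cells, and Setdb1 by 1.23 in KO cells against a change of 0.22 in WT cells.

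Each polarized condition was compared with Th0 cells of the same genotype, and the lineages were not tested against one another. In KO Th1 cells 0 genes rose and 3 fell (3.36% and 5.14% of all genes did), namely Morc3 by 0.46, Ehmt1 by 0.35 and Ehmt2 by 0.32. In WT Th1 cells 0 rose and 0 fell by limma (5.43% and 5.4%), with 1 at an unadjusted p under 0.05 and 2 called with array weights. In KO Th2 cells 2 rose and 2 fell (18.4% and 24.8%), and in WT Th2 cells 0 rose and 2 fell (17.2% and 22.9%). Setdb1 rose by 1.21 in KO Th2 relative to KO Th0 cells (adjusted p = 2.32e-07) and Morc3 fell by 0.72 (adjusted p = 1.76e-06). For Cbx5, Th2 against Th0 in WT, the change of -0.49 had an adjusted p of 0.0667, and 0.0394 with same-numbered samples paired within genotype.
In KO Th17 cells 1 rose and 5 fell (25.4% and 26.2%), and in WT Th17 cells 0 rose and 3 fell (20.3% and 18.8%). In KO Treg cells 0 rose and 1 fell (7.66% and 12%), namely Atf7ip by 0.50. In WT Treg cells 1 rose and 4 fell (19.2% and 22.4%). Cbx5 fell there by 1.40 (adjusted p = 5.25e-06), Cbx3 by 0.86, Ehmt2 by 0.60 and Morc3 by 0.35, and Ehmt1 rose by 0.28.

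Differences of the KO effect between conditions share the Th0 samples. Between Th0 and naive cells 1 gene had a higher effect and 3 a lower one (8.06% and 10.4% of all genes). Between Th1 and Th0 cells 0 were higher and 0 lower by limma (0.138% and 0.451%), with 1 at an unadjusted p under 0.05. Between Th2 and Th0 2 were higher and 0 lower (4.97% and 5.22%), and between Th17 and Th0 2 and 0 (7.41% and 8.22%). Between Treg and Th0 4 were higher and 2 lower (13.1% and 13.9%): the effect was higher for Cbx5, Cbx3, Ehmt2 and Morc3 and lower for Ehmt1 and Atf7ip.

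Other genes of the pathway were read from lists written for this comparison with earlier results known. Of 11 tested demethylases of the lysine, 6 were higher in KO cells in the mean over the 6 conditions and 0 were lower, with a median of 0.12 against -0.01 over all genes, of which 18.9% rose. Kdm4d changed by 0.48 (adjusted p = 8.39e-06) and Kdm7a by 0.32 (adjusted p = 0.00011). By condition, 6 rose in Th0 (16.8% of all genes did), 7 in Th1 (17%), 1 in Th2 (7.51%) and 1 in Th17 (4.03%), and 0 in naive and Treg cells (0.948% and 1.71%). With Th0 stimulation 0 of the 11 rose and 6 fell in WT cells (31.2% and 22.3% of all genes). In KO cells 1 rose and 2 fell (26.2% and 14.7%). The part of cell division in these changes was not tested. Of 3 other methyltransferases tested, Prdm2 rose by 0.17 in the mean over the 6 conditions. The HUSH complex spreads the mark over retroelements. Among 3 genes tested of the complex and its partner MORC2A, only Morc2a was called in the mean over the 6 conditions, with a fall of 0.16. By condition, 1 of the 3 rose in Th0 (16.8% of all genes did). In Th1 2 fell (23.7%) and in Th17 1 fell (4.18%).
Of 4 tested partners of SETDB1 or of the EHMT pair, Mbd1 and Cdyl rose in the mean over the 6 conditions and Trim28, the targeted gene, fell. Mbd1, which binds methylated DNA and recruits SETDB1, was called in all 6 conditions, with changes between 0.92 in naive and 1.72 in Th2 and Treg cells, and 1.35 on average (adjusted p = 8.62e-21). Of 12 other heterochromatin genes tested, 2 rose (Kmt5b by 0.20 and Atrx by 0.16) and 4 fell, with Uhrf1 down by 1.05 and Chaf1a down by 0.83; both shares are near the 18.9% and 27.5% of all genes. UHRF1 maintains DNA methylation and CHAF1A assembles chromatin, both at DNA replication, and all 19 proliferation genes also fell in this mean.

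Dop1b was among the 3 genes most like Morc3 over the 12 group means, with a Pearson r of 0.91, beside Rbm38 at 0.94 and Fntb at 0.93. In the RefSeq gene order of GRCm38.p6, Dop1b is the next protein-coding gene to Morc3. Naive KO samples had 10.67, 10.75 and 10.65 for Dop1b, against 9.10, 9.34 and 9.14 in naive WT samples, with no overlap. Its change was 1.498 in naive cells (adjusted p = 1.11e-07) and 0.74 in Th0 (adjusted p = 0.00043), and it did not pass in Th17 or Treg. The 3 protein-coding genes on either side of each of the 8 genes were read after this was seen. Of 29 tested neighbours, 9 rose and 5 fell in the mean over the 6 conditions, against 18.9% and 27.5% of all genes. The rises include Dop1b, which prompted this reading, and Cbr3 and Cacna1b, described below, which passed the filter through KO samples. The count is therefore not a test of the neighbours. Beside Setdb1 2 of 4 tested rose and 0 fell, beside Cbx1 2 of 5 and 0, and beside Morc3 2 of 3 and 0. For Ehmt1 1 of 5 rose and 3 fell, for Ehmt2 1 of 4 and 0, and for Cbx3 1 of 3 and 1. Next to Cbx5 0 of 2 rose and 0 fell, and next to Atf7ip 0 of 3 and 1.
Cbr3, a carbonyl reductase on the side of Dop1b, had 6.69, 6.16 and 6.09 in KO Treg against 3.88, 3.76 and 3.75 in WT Treg samples. It was above the table median of 5.26 in these 3 samples and in 1 KO Th2 sample and in no WT sample, and so entered the test through the groups where it was high. Its change was 0.13 in Th1 and -0.07 in Th17 cells.
Chaf1b, on the other side of Morc3 and a subunit of a chromatin assembly factor, had changes of both signs. In naive cells it had 9.20, 9.05 and 9.03 in KO, against 8.001, 8.38 and 8.29 in WT samples, a change of 0.87 with no overlap and an adjusted p of 0.127. It fell by 0.92 in Th0 (adjusted p = 0.00594) and by 1.09 in Th1 (adjusted p = 0.00126), and its mean over the 6 conditions was -0.16.
Beside Ehmt1, Cacna1b, a calcium channel subunit, rose by 2.20 in the mean over the 6 conditions. Naive KO samples had 9.43, 9.53 and 9.37 for Cacna1b, against 4.84, 4.85 and 4.51 in naive WT samples. Every WT value was below the table median of 5.26, so Cacna1b entered the test through KO samples, where it was high. The change was 4.71 in naive cells. In Th17 the KO samples had 5.32, 5.48 and 5.31, against 5.13, 5.23 and 5.24 in WT samples. Ehmt1 itself changed by 0.03 in the mean (adjusted p = 0.549).

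**Figure D5:**
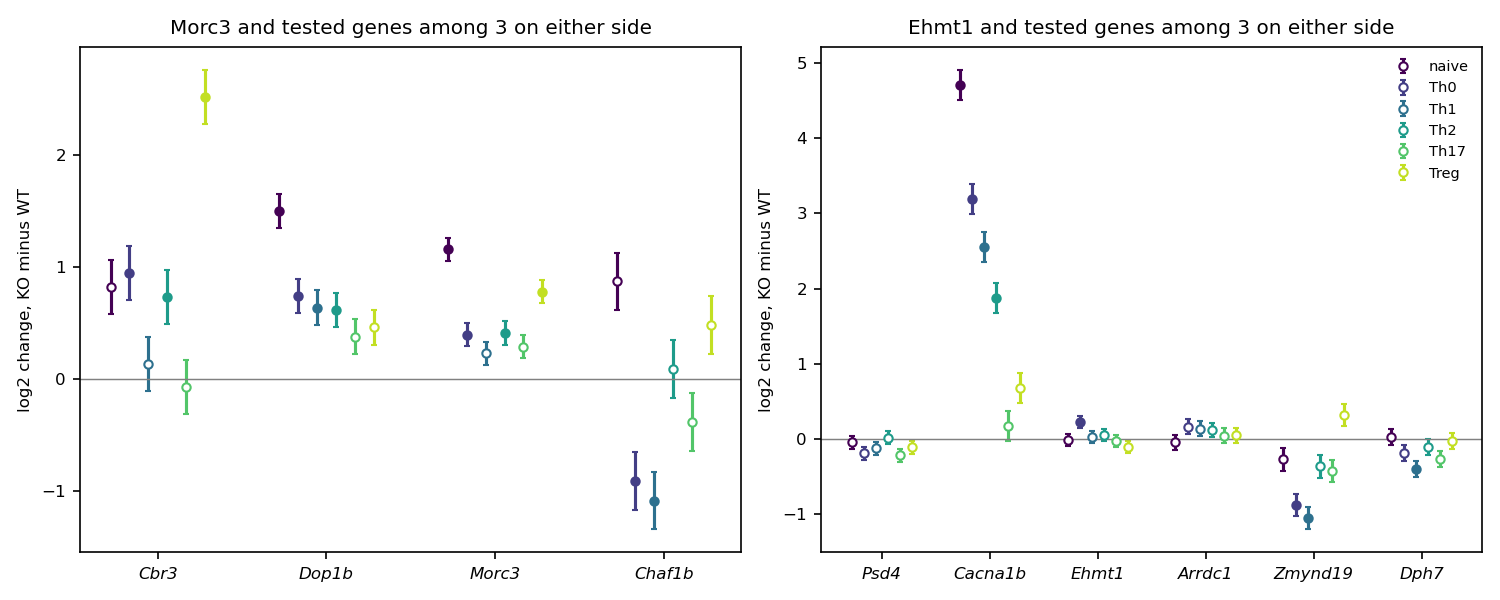
Log2 change, KO minus WT (y axis), in the 6 conditions for Morc3 (left) and Ehmt1 (right) and the tested genes among the 3 protein-coding genes on either side, in gene order (x axis), with standard errors as bars and filled points where the adjusted p was under 0.05. Cacna1b reaches 4.71 in naive cells while Ehmt1 beside it stays between -0.10 and 0.23.

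The other genes' nearest patterns over the 12 group means were Acadm (0.94), 9430037G07Rik (0.93) and Ttc5 (0.91) for Setdb1, Dmxl1 (0.97), Akap10 (0.96) and Rbm26 (0.96) for Ehmt1, and Slc39a6 (0.93), Socs1 (0.92) and Fbxl8 (0.92) for Ehmt2. They were H2az2 (0.96), Cdc23 (0.95) and Dcaf7 (0.95) for Cbx1 and Rmi2 (0.96), Bcap31 (0.95) and Slbp (0.93) for Cbx3. For Atf7ip they were Stpg4 (0.97), Trim69 (0.95) and Zfp710 (0.95). These are Pearson r values over 12 points and the closest of 13081 genes compared. Among the 8 genes themselves, Cbx3 and Cbx5 were the closest pair, at 0.81, and Ehmt1 and Cbx5 the most opposed, at -0.80.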

How the data were processed

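The genes, lists and comparisons were chosen with earlier results of these data known. Per the submitters' processing notes, the authors used R 3.1.0, oligo and RMA, which yields log2 intensities; the genome build and annotation were not given in the sources used here. The deposited log2 values were used without further scaling. Of 41345 rows, 23521 had 1 symbol, 1814 several and 16010 none in the probe annotation. Genes above the median of all values, 5.26, in at least 3 samples were tested, 13082 in all. A mean for each of the 12 groups was fitted to the 36 samples with limma 3.58.1 in R 4.3.3 (the data.table package, version 1.17.8), with 24 residual degrees of freedom, giving 22 comparisons. P-values were adjusted by Benjamini-Hochberg over all genes tested, and a gene was called at an adjusted p under 0.05. The number of arrays limits the precision.

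All members were named, with Trim28, up to 2 called genes in each direction of each list by mean KO effect, and the 3 genes most correlated with each member; the neighbouring genes were added after their values were seen. In the mean KO effect no CD8 T cell marker (2 tested) and no B cell marker (2 tested) was called, though some were by condition; 4 of 5 CD4 T cell markers rose (Cd3e by 0.20 and Cd3d by 0.14 the most), 1 of 2 myeloid markers rose (Itgam by 0.41), the 1 NK marker tested fell (Eomes by 0.72), and of 6 lineage genes Foxp3 rose by 0.63, Gata3 rose by 0.29 and Il4 fell by 0.43. Of the proliferation genes Bub1 fell by 1.19 and Birc5 by 1.09. No erythroid marker was tested, and the 1 other MORC gene tested was Morc2a.

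Alternatives were other filters, quantile normalization, median centering, cyclic loess, averaging the rows of a gene, all rows, array weights, a fit to the compared groups, replicate blocks, a term for sex by Xist, and each sample left out. The replicate block within genotype was chosen after seeing the data. Same-numbered samples were checked for pairing by correlating their deviations from group means. The correlation was above 0.1 for all 3 numbers between KO Th0 and KO Th1 (0.70, 0.60 and 0.51) and WT Th0 and WT Th1 (0.39, 0.33 and 0.23), among others, and for no KO and WT pair of one condition. No 2 columns were identical. The limma calls of KO against WT in Th17 were tested on simulated data with independent noise between samples. The other steps were not tested in this way.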

Additional observations from a re-analysis of the deposited data

Results flagged for a closer look

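The KO effect differed between conditions for 7 of the 8 genes in at least 1 of 5 differences tested with limma, as it did for 37.9% of all genes tested; the values are log2 differences of KO minus WT changes. For Setdb1 the effect was higher by 1.01 in Th0 than in naive cells, by 1.40 in Th2 than in Th0 and by 0.83 in Th17 than in Th0. For Cbx3 the difference was -0.59 between Th0 and naive, 0.59 between Th2 and Th0, 0.41 between Th17 and Th0 and 0.93 between Treg and Th0. In a limma fit to all rows, the Cbx3 row with the lowest mean passed in none of these. Between Th17 and Th0 that fit gave an adjusted p of 0.0665, 0.139, 0.319 and 0.544 in the 4 rows of Cbx3. For Cbx5 the difference was -1.25 between Th0 and naive and 1.43 between Treg and Th0. For Morc3 it was -0.76 between Th0 and naive and 0.39 between Treg and Th0. Between Treg and Th0 it was 0.40 for Ehmt2, -0.33 for Ehmt1 and -0.38 for Atf7ip. Without the KO Th0 sample numbered 1, the differences between Treg and Th0 for Ehmt1, Atf7ip and Morc3 and that between Th17 and Th0 for Cbx3 did not pass; these 4 were lost in 9, 12, 27 and 12 of 50 alternatives, in that order, most of which left out other single samples. That for Ehmt2 between Treg and Th0 did not pass without KO Th0 sample 3, KO Treg sample 1 or WT Treg sample 2. For Cbx5 between Th17 and Th0 the difference was 0.84 and did not pass (adjusted p = 0.0554), but passed in 12 of 50 alternatives.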

How the results depend on the processing

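Counts of called genes among the 8 moved by over 1.5 times as follows. For KO against WT in Th17 the count of 1 became 2 with quantile normalization, cyclic loess, a fit to only the groups compared, and both KO samples numbered 1 left out, and 3 with array weights. In Treg 3 became 5 with array weights. For the KO effect in Th17 minus Th0, 2 became 1 with no filter, with all rows and with both samples left out, and 4 with array weights. For Treg minus Th0, 6 became 3 with both samples left out. For Th1 against Th0, 3 in KO cells became 0 in a fit to only the groups compared, and 0 in WT cells became 1 in that fit and 2 with array weights. For Th2 against Th0, 4 in KO cells became 2 in that fit, and 2 in WT cells became 1 with the mean of a gene's rows and 6 with array weights. For WT Th17 against Th0, 3 became 5 with array weights. Leaving out each sample in turn gave 1 to 3 for KO against WT in Th2, 1 to 4 for the effect in Th17 minus Th0, 3 to 6 for Treg minus Th0, 1 to 3 for KO Th1 and 0 to 1 for WT Th1 against Th0, 1 to 3 for WT Th2 and 1 to 2 for KO Treg against Th0. The samples behind these ranges were KO Th2 1 for KO against WT in Th2, KO Th0 1, KO Th0 3 and WT Treg 2 for Treg minus Th0, KO Th0 1 for KO Th1, KO naive 2 or 3 for WT Th1, WT Th2 2 for WT Th2 and KO Treg 1 for KO Treg. For Th17 minus Th0 the count was 4 without KO Th0 2 and 1 without any of 8 other samples of these groups. With the replicate number as a fixed replicate block the counts were as reported, for example 5 for KO against WT in Th0, and with a random replicate block that for Th17 minus Th0 was 3; for the pairs that share numbers, a replicate block within genotype moved no count by over 1.5 times, and added calls of Cbx5 in WT Th2 and WT Th17 against Th0 and in the KO effect in Th17 minus Th0. None of the called changes reversed in these alternatives, while 35 of 106 changes that were not called had either sign. The causes were not tested. Scaling moved the median of all genes by 0.12 for WT Th0 against naive and by 0.10 for KO Th17 against Th0. Ehmt2 in Treg and Morc3 in Th2 lost their calls in a fit to only the groups compared.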
